A study of Homo sapiens with 15 samples.

Results

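SNB19 is a human glioblastoma cell line. The libraries described here compare cells that carried a mutant of the short form of ZBTB18 (SF-mut) with cells that carried the unmutated short form (SF-Nte), 3 libraries against 3, or 6 of the 15 libraries of the study. All genes with enough counts in the deposited table entered the comparison, which left 6767 of 18485 gene symbols. Both groups were grown in DMEM with fetal bovine serum and received their ZBTB18 form by lentivirus in the vector pCHMWS. The other groups received the mutant of full-length ZBTB18 (FL-mut), full-length ZBTB18 (FL) or the empty vector (EV), with 3 libraries each. Which residues the mutation alters, what Nte abbreviates and whether replicates were separate cultures is not in the labels. The p-values therefore cover the variation among the libraries at hand, which may be technical. The question was which transcripts differ when the short form carries the mutation.

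ZBTB18 is a zinc finger protein with a BTB domain that acts mainly as a transcriptional repressor. It binds DNA at E-box-like sites, recruits corepressors that include the C-terminal binding proteins CTBP1 and CTBP2, and is required for the development of the cerebral cortex. In glioblastoma it has been described as a repressor of mesenchymal genes and of SREBP-driven lipid synthesis genes, and its expression is often reduced in these tumours. The EV cells of this study had little of its transcript.

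Polyadenylated RNA was read as PCR-amplified cDNA on an Oxford Nanopore sequencer, and the authors deposited whole-number read counts per gene. Total counts were 597414, 315693 and 521025 in SF-mut and 603155, 584383 and 432611 in SF-Nte, below the 803316 to 1930245 of the other 9 libraries. Levels are given as CPM, the counts scaled to a common library total after TMM normalisation. They are shares of a library, so in bulk RNA fewer cells with a transcript and less of it per cell cannot be told apart. The summed level of 12 markers of glioma lines was 1348 to 1671 CPM in SF-mut and 1468 to 1731 CPM in SF-Nte, with VIM, which encodes vimentin, at 737, 521 and 701 CPM in SF-mut, against 713, 739.6 and 844 CPM in SF-Nte. The astrocyte gene GFAP was at 0 in all 3 SF-mut libraries and in 2 of the 3 SF-Nte libraries. Immune markers summed to 3.27 to 18.5 CPM in SF-mut and 9.96 to 34.7 CPM in SF-Nte, with 5 and 4 of the 8 markers in the table at 0 throughout the group. Epithelial markers summed to 42.5 to 169.5 CPM in SF-mut and 49.8 to 75.3 CPM in SF-Nte (3 and 1 of 7 at 0), and endothelial markers to 6.17 to 10.2 CPM in SF-mut and 1.88 to 11.6 CPM in SF-Nte (3 of 6 at 0 in both). The part of these cell types in the results was not tested.

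SF-mut replicate 2 stood apart from its own group. Its log2 CPM correlated with those of SF-mut replicates 1 and 3 at r = 0.70 and 0.69 across genes, whereas replicates 1 and 3 correlated at 0.83 and the SF-Nte libraries at 0.83 to 0.85 among themselves. The library with which it correlated best was FL-mut replicate 2, at 0.82. Among 1964 genes with a mean of at least 50 counts, those with the most GC-rich transcripts (median GC content 56.2%) lay above the mean of the 15 libraries in SF-mut replicate 2 by a median log2 of 0.42, against -0.09 and -0.16 in SF-mut replicates 1 and 3 and 0.05, -0.34 and -0.14 in SF-Nte. The quartile with the lowest GC content (median 38.9%) lay at -0.51 in SF-mut replicate 2, against 0.01 and 0.15 in the other SF-mut libraries. The quartile with the longest transcripts (median 5217 nucleotides) lay at -0.48 in that library and at 0.08 and 0.06 in SF-mut replicates 1 and 3. SF-mut replicate 2 also had the lowest total count of all libraries. Many results are therefore given with it and without it, and the others are from all libraries. In addition, the barcode names of the SF-mut libraries carry a suffix that those of the SF-Nte libraries lack, and any difference in handling between the groups cannot be told apart from the mutation.

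**Figure D1:**
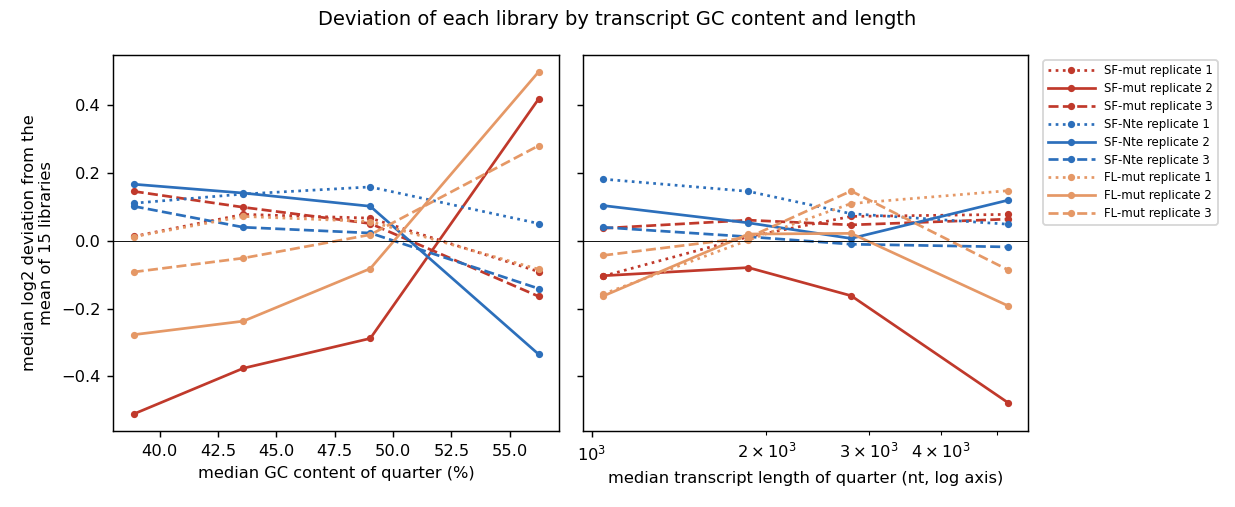
Median log2 deviation of each SF-mut, SF-Nte and FL-mut library from the mean of all 15 libraries, for quartiles of 1964 genes by transcript GC content (left, %) and by transcript length (right, nucleotides, log axis). SF-mut replicate 2 runs from -0.51 in the quartile of lowest GC content to 0.42 in that of highest GC content, and its longest transcripts lie at -0.48.

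The delivered gene itself was read at higher levels in SF-mut. ZBTB18 (chromosome 1, 244048939 to 244057476, plus strand, GRCh38) stood at 853, 3631 and 896 CPM in SF-mut, against 470.0, 199.5 and 234 CPM in SF-Nte. All 3 SF-mut libraries were above all 3 SF-Nte libraries, and SF-mut replicate 2 was by far the highest. The group means were 1793 ± 1592 CPM in SF-mut and 301 ± 147 CPM in SF-Nte (SD, n = 3 each). The log2 fold change was 2.57 ± 0.77 (SE), which did not pass edgeR's quasi-likelihood test with Benjamini-Hochberg adjustment (edgeR adjusted p = 0.574). A two-sided exact permutation test over the 6 libraries gave p = 0.1, the smallest value that 3 against 3 allows. Without SF-mut replicate 2 the log2 fold change was 1.53. ZBTB18 averaged 3521 ± 3040 CPM in FL-mut, 1442 ± 1408 CPM in FL and 6.17 ± 1.55 CPM in EV. Short-form cells of either kind thus carried the transcript far above EV, and the SF-Nte libraries carried the least of the 4 groups with a ZBTB18 vector. The mean was higher in the mutant group of each form, so an effect of the ZBTB18 level cannot be told apart from that of the mutation.

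No gene passed the adjusted threshold of 0.05 between SF-mut and SF-Nte (0 of 6767 tested, 0%), with edgeR's quasi-likelihood test fitted to all 15 libraries. The smallest Benjamini-Hochberg adjusted p was 0.574, and the gene of smallest p was HCCS. It is not among the genes named below, which had to meet further conditions. DESeq2 called 4 genes, all higher in SF-mut (COMMD5, TRIP10, SIVA1 and CD320). Without adjustment, 564 genes (8.33%) had an edgeR p under 0.05, with 396 (5.85%) higher in SF-mut and 168 (2.48%) lower. The 3 SF-mut libraries did not overlap the 3 SF-Nte libraries for 837 genes (12.4%), and here the lower genes were in the majority, with 448 (6.62%) lower and 389 (5.75%) higher. The median log2 fold change over all tested genes was 0.05.

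Much of the excess of higher genes moved with 1 library. Among the 396 genes that were higher at an unadjusted p under 0.05, SF-mut replicate 2 was the highest of the SF-mut libraries for 272 (68.7%), and their median transcript GC content was 52.9%, against 46.4% for all tested genes. Among the 168 lower genes it was the lowest SF-mut library for 76 (45.2%), and their median GC content was 46.4%. Fitted without SF-mut replicate 2, 260 genes of 7494 (3.47%) were higher and 171 (2.28%) lower at that threshold.

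The precision of the comparison was limited. Over the tested genes, log2 fold changes had a median standard error of 0.72 in the fit to all 15 libraries. The 95% interval of the log2 fold change lay within 1 in either direction for 619 genes (9.16%) and within 2 for 3105 genes (45.9%). For the quartile of genes with the highest levels, at least 64.3 CPM, the median standard error was 0.39, and for the quartile with the lowest levels it was 1.16.

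**Figure D2:**
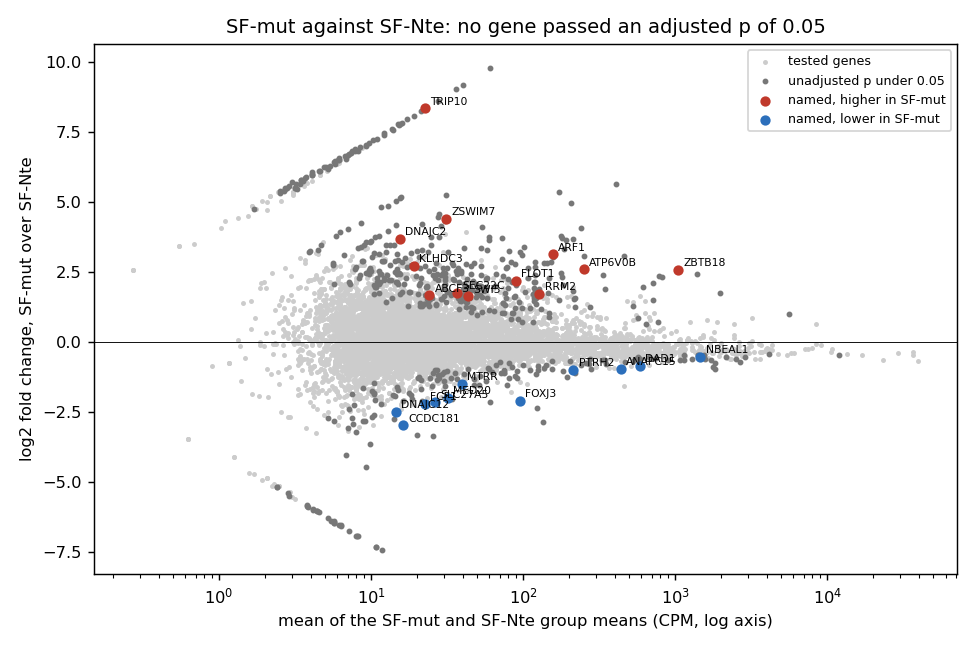
Log2 fold change of SF-mut over SF-Nte for each of the 6767 tested genes against the mean of the 2 group means (CPM, log axis). The 564 genes at an unadjusted p under 0.05 are in dark grey. Genes named in red (higher in SF-mut) and blue (lower) were taken by lowest p among those without overlap and with at least 10 counts in every library of the higher group. The diagonal rows of points are genes at 0 in one group, whose fitted fold change has no fixed size, and the cloud narrows toward high levels.

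Among the genes whose libraries did not overlap and that had at least 10 counts in every library of the higher group, those of lowest p that were higher in SF-mut were ZBTB18, TRIP10, DNAJC2, ZSWIM7, ATP6V0B, SEC22C, KLHDC3, SWI5, FLOT1, ABCF3, RRM2 and ARF1. None passed the adjusted test (edgeR, adjusted p = 0.574 for each), and their values are descriptions. TRIP10, an adaptor that links CDC42 to membrane and actin remodelling, stood at 18.0, 92.5 and 24.6 CPM in SF-mut, against 0, 0 and 0 CPM in SF-Nte. With 3 counts over the SF-Nte libraries as the limit that a count of 0 allows, it was at least 21.8-fold higher in SF-mut, and at least 10.3-fold higher without SF-mut replicate 2, for counting error only. TRIP10 averaged 8.12 ± 2.83 CPM in EV, 17.2 ± 5.30 CPM in FL and 21.4 ± 23.0 CPM in FL-mut, so SF-Nte was the lowest group. ATP6V0B, a subunit of the membrane sector of the vacuolar proton pump, stood at 196, 937 and 159.9 CPM in SF-mut, against 79.0, 64.0 and 69.7 CPM in SF-Nte. ARF1, a small GTPase of Golgi vesicle formation, stood at 83.3, 709 and 55.4 CPM in SF-mut, against 28.9, 43.3 and 22.4 CPM in SF-Nte. In both genes the 3 SF-mut libraries were above SF-Nte, but replicate 2 was several times above replicates 1 and 3, and the log2 fold change was 1.32 for ATP6V0B and 1.12 for ARF1 without it, against 2.59 and 3.13 with it.

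Among the other genes of this group, SEC22C, SWI5 and ABCF3 rested less on that library. SEC22C, a protein of transport between the endoplasmic reticulum and the Golgi, stood at 58.8, 70.9 and 41.0 CPM in SF-mut, against 23.1, 7.53 and 19.9 CPM in SF-Nte, a log2 fold change of 1.75 ± 0.47 (SE) and of 1.56 without replicate 2. SWI5, a recombination factor, stood at 65.4, 74.0 and 57.4 CPM in SF-mut, against 34.7, 13.2 and 14.9 CPM in SF-Nte, with log2 fold changes of 1.63 ± 0.45 and 1.53. ABCF3, an ATP-binding cassette protein without a membrane domain, stood at 49.0, 37.0 and 24.6 CPM in SF-mut, against 15.4, 11.3 and 7.47 CPM in SF-Nte. Its log2 fold change was 1.67 ± 0.50, and replicate 2 was not its highest SF-mut library. In these 3 genes every SF-mut library was above every SF-Nte library. EV averaged 30.3 ± 6.01 CPM for SEC22C, 58.4 ± 13.6 CPM for SWI5 and 46.1 ± 5.57 CPM for ABCF3. SF-Nte had the lowest mean of all groups in each of them, at 16.9, 20.9 and 11.4 CPM. The SF-mut means were 56.9, 65.6 and 36.9 CPM, so for ABCF3 SF-mut was below EV as well. DNAJC2, a ribosome-associated co-chaperone, had 22.9, 43.1 and 20.5 CPM in SF-mut, against 0, 3.76 and 2.49 CPM in SF-Nte, where the SF-Nte values rest on so few reads that no fold is given. ZSWIM7, which takes part in homologous recombination, had 34.3, 117 and 28.7 CPM in SF-mut, against 0, 7.53 and 0 CPM in SF-Nte. KLHDC3, a substrate receptor of a cullin ubiquitin ligase, had 19.6, 55.5 and 24.6 CPM in SF-mut, against 5.78, 3.76 and 4.98 CPM in SF-Nte. All 3 were near the limit of detection in SF-Nte, and replicate 2 was the highest SF-mut library in each. FLOT1, a lipid raft scaffold, stood at 88.2, 228 and 123 CPM in SF-mut, against 57.8, 22.6 and 14.9 CPM in SF-Nte, with replicate 2 again the highest. RRM2, the regulated subunit of ribonucleotide reductase, stood at 165, 351 and 71.8 CPM in SF-mut, against 61.6, 62.1 and 52.3 CPM in SF-Nte, with a log2 fold change of 1.73 ± 0.52 and of 1.01 without replicate 2. RRM2 also averaged 304 ± 58.6 CPM in FL-mut, 82.0 ± 40.2 CPM in FL and 139.8 ± 64.1 CPM in EV.

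Under the same conditions of no overlap and at least 10 counts, the genes of lowest p that were lower in SF-mut included SLC27A5, FCF1, MED20, MTRR, DAD1, CCDC181, PTRH2, FOXJ3, DNAJC12, ANAPC15 and NBEAL1. Again none passed the adjusted test (edgeR, adjusted p = 0.574 for each). DAD1, a subunit of the oligosaccharyltransferase that glycosylates proteins in the endoplasmic reticulum, stood at 399, 348 and 506 CPM in SF-mut, against 776, 787 and 707 CPM in SF-Nte. Its log2 fold change was -0.86 ± 0.27 (SE), with a 95% interval of -1.42 to -0.29, and -0.76 without SF-mut replicate 2. PTRH2, a mitochondrial peptidyl-tRNA hydrolase, stood at 189.5, 86.3 and 149.7 CPM in SF-mut, against 281, 280.4 and 291 CPM in SF-Nte. ANAPC15, a subunit of the anaphase-promoting complex, stood at 474, 206 and 215 CPM in SF-mut, against 659, 574 and 510.5 CPM in SF-Nte. NBEAL1, a large BEACH-domain protein, stood at 997, 1242 and 1343 CPM in SF-mut, against 1651, 1886 and 1671 CPM in SF-Nte, a log2 fold change of -0.54 ± 0.19. These 4 genes had the highest levels of the lower group, and their SF-Nte libraries differed little among themselves.

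The remaining lower genes were read at under 250 CPM in every SF-mut and SF-Nte library. SLC27A5, a fatty acid transport protein and bile acid ligase, had 8.17, 6.17 and 14.3 CPM in SF-mut, against 25.0, 45.2 and 59.8 CPM in SF-Nte. FCF1, a factor of small ribosomal subunit assembly, had 11.4, 3.08 and 8.20 CPM in SF-mut, against 28.9, 43.3 and 39.8 CPM in SF-Nte. MED20, a subunit of the Mediator complex, had 14.7, 6.17 and 16.4 CPM in SF-mut, against 57.8, 62.1 and 34.9 CPM in SF-Nte. In each of these genes the highest SF-mut library was well below the lowest SF-Nte library. MTRR, which keeps methionine synthase active, had 21.2, 15.4 and 24.6 CPM in SF-mut, against 50.1, 90.3 and 34.9 CPM in SF-Nte. FOXJ3, a forkhead factor, had 49.0, 18.5 and 36.9 CPM in SF-mut, against 243, 56.5 and 164 CPM in SF-Nte. The SF-Nte libraries were more scattered in these genes, and FOXJ3 averaged 572 ± 426 CPM in EV. CCDC181 and DNAJC12 had no more than 10.2 CPM in any SF-mut library and at least 21.2 CPM in every SF-Nte library. Without SF-mut replicate 2 the log2 fold changes of these 11 lower genes ran from -2.57 in CCDC181 to -0.59 in NBEAL1.

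**Figure D3:**
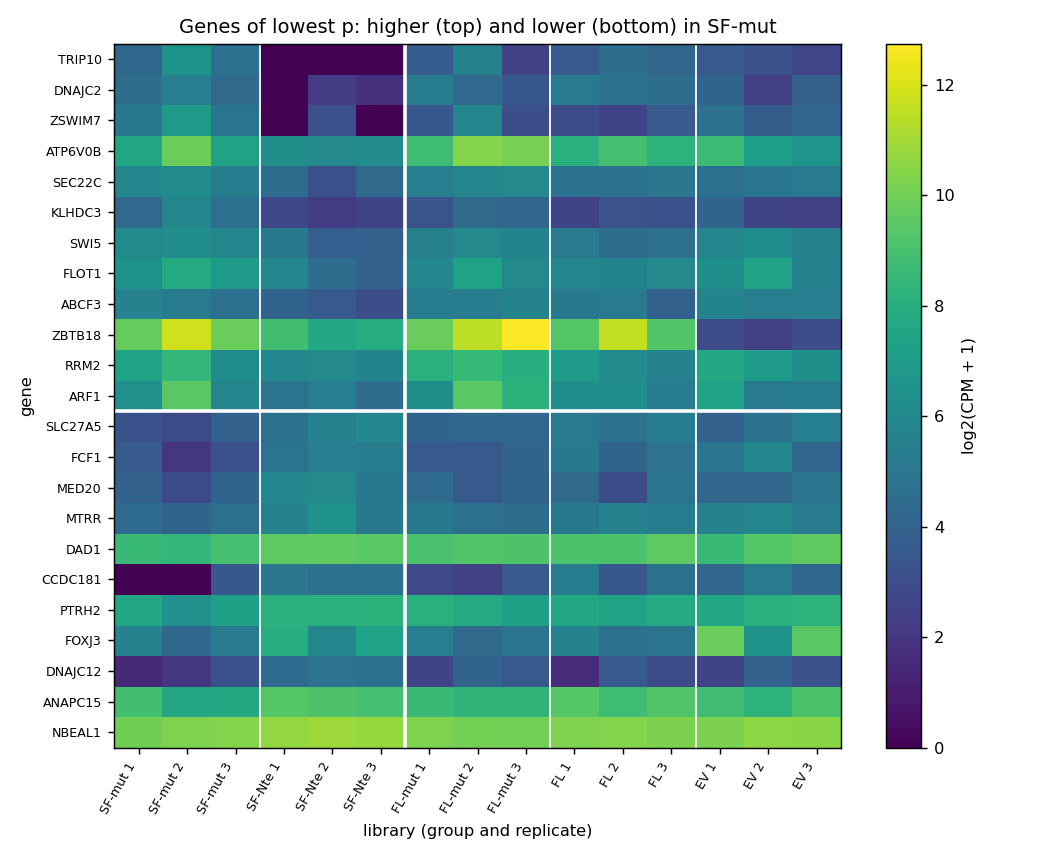
Levels, as log2(CPM + 1), of the 12 named genes that were higher in SF-mut (top rows) and 11 that were lower (bottom rows), in all 15 libraries. They were taken by lowest p among genes without overlap and with at least 10 counts in every library of the higher group. The SF-mut and SF-Nte libraries are left of the thick line. ZBTB18 is lowest in EV, and TRIP10 is at 0 in all 3 SF-Nte libraries. SF-mut replicate 2 has the brightest cell of its group in every top row except that of ABCF3.

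Several genes with large fitted changes were high in SF-mut replicate 2 alone. GPX4, which reduces lipid hydroperoxides, had 0, 2401 and 0 CPM in SF-mut, against 46.2, 0 and 0 CPM in SF-Nte. EMP3, an epithelial membrane protein of mesenchymal glioma, had 6.54, 992 and 16.4 CPM in SF-mut, against 17.3, 5.65 and 0 CPM in SF-Nte. SLC3A2, the heavy chain of the cystine and amino acid exchangers, had 19.6, 943 and 49.2 CPM in SF-mut, against 25.0, 24.5 and 27.4 CPM in SF-Nte. In each of them replicates 1 and 3 were within or near the range of SF-Nte. The lysosomal protease CTSB had 209, 3458 and 246 CPM in SF-mut, against 279, 196 and 289 CPM in SF-Nte, the proteasome subunit PSMD8 had 60.5, 1261 and 32.8 CPM in SF-mut, against 59.7, 16.9 and 0 CPM in SF-Nte, and the cytochrome c oxidase subunit COX5B had 29.4, 1140 and 18.4 CPM in SF-mut, against 34.7, 33.9 and 22.4 CPM in SF-Nte. Without that library the log2 fold change was -0.18 for CTSB and -0.35 for COX5B, so their direction turned, and 0.46 for EMP3, 0.39 for SLC3A2 and 0.83 for PSMD8. GPX4 was then at 0 in both remaining SF-mut libraries. Transcript GC content was 65.2% for GPX4, 59.5% for EMP3, 57.4% for SLC3A2, 52.8% for CTSB, 55.0% for PSMD8 and 52.0% for COX5B, all above the median of 46.4%.

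Lipid genes were examined because SREBP-driven lipid synthesis has been tied to ZBTB18 in glioblastoma. Of 18 tested genes of cholesterol synthesis, 8 were above and 10 below 0 on the log2 scale, none was at an unadjusted p under 0.05 in either direction, and in none did the groups separate, against 12.4% of all genes. Their median was -0.08 and turned to 0.16 without SF-mut replicate 2. FDPS, which makes farnesyl diphosphate, stood at 1451, 518 and 1601 CPM in SF-mut, against 1753, 1626 and 1188 CPM in SF-Nte, and the first enzyme committed to sterols, FDFT1, at 583, 416 and 166 CPM in SF-mut, against 262, 307 and 252 CPM in SF-Nte. The groups overlapped in both. The 95% intervals of the log2 fold change were -1.30 to 0.59 for FDPS and -0.62 to 1.64 for FDFT1, so changes of these sizes could not be resolved. PMVK, the mevalonate pathway kinase of lowest p in the list, stood at 19.6, 95.5 and 14.3 CPM in SF-mut, against 15.4, 15.1 and 9.96 CPM in SF-Nte, and only replicate 2 of SF-mut was far from SF-Nte.

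Of 11 tested genes of SREBP control and sterol uptake, 8 were below 0, with a median of -0.37 that was -0.13 without SF-mut replicate 2. The groups separated for 1 of them, a share below the 12.4% of all genes. That gene was INSIG2, which retains the SREBP complex in the endoplasmic reticulum. INSIG2 stood at 14.7, 33.9 and 30.8 CPM in SF-mut, against 82.8, 96.0 and 47.3 CPM in SF-Nte, with a log2 fold change of -1.53 ± 0.60 (SE), the one member at an unadjusted p under 0.05. SF-Nte was the high group here, as INSIG2 averaged 30.2 ± 15.8 CPM in FL-mut, 22.5 ± 7.18 CPM in FL and 22.7 ± 14.6 CPM in EV. SREBF1, which encodes the SREBP that drives fatty acid synthesis genes, was read at 8.17, 0 and 4.10 CPM in SF-mut, against 13.5, 22.6 and 4.98 CPM in SF-Nte, too few reads to compare.

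Among 13 tested genes of fatty acid synthesis, 7 were above and 6 below 0 with a median of 0.05 that turned to -0.04 without SF-mut replicate 2. The groups separated for 3 (2 higher, 1 lower), against 12.4% of all genes. SCD, the desaturase that makes oleic acid, stood at 44.1, 49.3 and 71.8 CPM in SF-mut, against 137, 150.5 and 187 CPM in SF-Nte. Every SF-mut library was below every SF-Nte library, and the log2 fold change was -1.52 ± 0.80 (SE), with a 95% interval of -3.22 to 0.19. SCD was variable elsewhere, at 24.2, 69.0 and 44.2 CPM in FL-mut, 7.63, 34.8 and 96.8 CPM in FL and 30.0, 61.2 and 275 CPM in EV. The standard error of SCD comes from the fit to all 15 libraries, so this spread enters it. ELOVL1, an elongase of very long fatty acids, was higher in SF-mut, at 183, 225 and 172 CPM in SF-mut, against 94.4, 126 and 127 CPM in SF-Nte, a log2 fold change of 0.74 ± 0.36. Of 5 tested lipid droplet genes, 3 were below 0. HILPDA, an inhibitor of lipid droplet lipolysis, stood at 26.1, 40.1 and 43.1 CPM in SF-mut, against 90.5, 77.2 and 57.3 CPM in SF-Nte, whereas BSCL2, which encodes seipin, was highest by far in SF-mut replicate 2, at 16.3, 268 and 30.8 CPM in SF-mut, against 0, 18.8 and 12.4 CPM in SF-Nte.

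The corepressor genes with which ZBTB18 works were read at low levels. Of 14 tested, 4 were above and 10 below 0, with a median of -0.09, none was at an unadjusted p under 0.05, against 8.33% of all genes, and the groups separated for 1, against 12.4%. That gene was PHF21A, a reader of unmethylated histone tails in the LSD1 complex, at 3.27, 0 and 0 CPM in SF-mut, against 9.63, 9.41 and 19.9 CPM in SF-Nte, where 2 of the SF-mut libraries held no read. HDAC3 stood at 37.6, 12.3 and 22.6 CPM in SF-mut, against 0, 22.6 and 0 CPM in SF-Nte, with 2 SF-Nte libraries at 0. These low levels do not allow a comparison of this complex between the groups.

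Mesenchymal genes showed no common direction. Of 28 tested, 15 were above and 13 below 0, the median was 0.13 and 0.02 without SF-mut replicate 2, and at an unadjusted p under 0.05 there were 5 higher and 0 lower, against 1 and 0 without that library. The shares over all genes were 5.85% higher and 2.48% lower, and 3.47% and 2.28% without that library. CD44, the hyaluronan receptor that marks mesenchymal glioma cells, stood at 240.2, 579.5 and 168 CPM in SF-mut, against 88.6, 105 and 134 CPM in SF-Nte, with the groups apart. S100A10, the annexin A2 partner, stood at 85.0, 666 and 53.3 CPM in SF-mut, against 23.1, 32.0 and 54.8 CPM in SF-Nte, with replicate 2 far above the rest. Of 8 tested S100 genes, which encode small calcium-binding proteins, 4 were above and 4 below 0. Their median was 0.10 and turned to -0.10 without SF-mut replicate 2. The groups separated for 1 of the 8, a share near the 12.4% of all genes. That gene was S100A13, at 338, 524 and 642 CPM in SF-mut, against 679.9, 769.7 and 764 CPM in SF-Nte. The extracellular matrix list had 8 of 19 above 0 and a median of -0.27, and its member of lowest p, the laminin chain LAMA4, stood at 8.17, 142 and 51.3 CPM in SF-mut, against 15.4, 5.65 and 12.4 CPM in SF-Nte, which overlap.

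Actin genes were mostly above 0. Of 30 tested, 22 were above 0, with a median of 0.38 and of 0.35 without SF-mut replicate 2, beside 0.05 for all genes. At an unadjusted p under 0.05 there were 4 higher and 0 lower, against 1 and 0 without that library, and the groups separated for 1 higher and 2 lower members. Over all genes 5.85% were higher and 2.48% lower at that p, and 5.75% higher and 6.62% lower without overlap, so the separated actin genes were near the background. The cytoplasmic actin ACTG1 stood at 7420, 11550 and 3543 CPM in SF-mut, against 4723, 2808 and 3673 CPM in SF-Nte, and the tropomyosin TPM3 at 753, 980.2 and 484 CPM in SF-mut, against 366, 499 and 344 CPM in SF-Nte. SF-mut replicate 3 lay within the SF-Nte range in both genes. Targets of YAP and TGF-beta signalling had 10 of 14 above 0, the highest median of all lists of at least 5 members (0.52, and 0.88 without SF-mut replicate 2). Most of them were at under 100 CPM, and 1 was at an unadjusted p under 0.05, against 8.33% of all genes. That gene was ID3, an inhibitor of basic helix-loop-helix factors, at 26.1, 345 and 32.8 CPM in SF-mut, against 7.70, 7.53 and 14.9 CPM in SF-Nte. ID2, of the same family, stood at 22.9, 18.5 and 12.3 CPM in SF-mut, against 3.85, 3.76 and 0 CPM in SF-Nte. TGFBI, an extracellular matrix protein induced by TGF-beta, lay the other way, at 60.5, 46.2 and 14.3 CPM in SF-mut, against 102, 75.3 and 87.2 CPM in SF-Nte.

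Among secreted and interferon-related genes, a few had groups that separated. CCL2, the monocyte-attracting chemokine, stood at 217, 166 and 316 CPM in SF-mut, against 772, 595 and 695 CPM in SF-Nte, so every SF-mut library was below every SF-Nte library. The log2 fold change was -1.56 ± 0.78 (SE) with a 95% interval of -3.20 to 0.09, and -1.38 without SF-mut replicate 2. CCL2 averaged 23.2 ± 16.2 CPM in FL-mut and 20.0 ± 12.9 CPM in FL, and the EV libraries spread over 82.5, 227 and 1550 CPM, a range wider than that of the short-form libraries. The standard error and interval come from the fit to all 15 libraries, so this spread enters them. With the 6 short-form libraries alone, CCL2 had the smallest p of all genes but did not pass (edgeR adjusted p = 0.668). IFITM2, a membrane protein that restricts viral entry, stood at 19.6, 30.8 and 69.7 CPM in SF-mut, against 214, 173 and 229 CPM in SF-Nte. Its log2 fold change was -2.35 ± 1.08 and -2.23 without replicate 2, and its reads cannot be fully separated from those of near-identical family members. HLA-B, a class I antigen, likewise a member of a family of similar genes, stood at 68.6, 92.5 and 65.6 CPM in SF-mut, against 137, 115 and 152 CPM in SF-Nte. Of the 15 tested interferon-response genes, 6 were above and 9 below 0, with the lowest median of the lists of at least 5 members (-0.51, and -0.54 without replicate 2), and 1 higher and 1 lower member had an unadjusted p under 0.05, beside 5.85% higher and 2.48% lower over all genes. The groups separated for 2 higher and 3 lower members, beside 5.75% and 6.62% over all genes. The higher member at an unadjusted p under 0.05 was ISG15, an interferon-induced ubiquitin-like protein. It stood at 4.90, 86.3 and 4.10 CPM in SF-mut, against 0, 0 and 0 CPM in SF-Nte, so it was near the limit of detection outside SF-mut replicate 2. Without that library 4 members lay above and 11 below 0. At an unadjusted p under 0.05, 0 were then higher and 1 lower, beside 3.47% higher and 2.28% lower over all genes.

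Nuclear-encoded subunits of the respiratory chain and of ATP synthase lay mostly a little lower in SF-mut. Of 60 tested, 39 were below 0, with a median log2 fold change of -0.29 and of -0.28 without SF-mut replicate 2, beside 0.05 for all genes. The groups separated for 24 lower and 1 higher members, against a background of 6.62% lower over all genes and of 12.2% in the quartile of genes with the highest levels, which holds 52 of the 60. At an unadjusted p under 0.05 there were 13 lower and 5 higher, beside 2.48% lower and 5.85% higher over all genes, against 3 and 0 without SF-mut replicate 2, and none passed the adjusted test. ATP5G2, a ring subunit of ATP synthase, stood at 2064, 1609 and 2393 CPM in SF-mut, against 3762, 3444 and 2856 CPM in SF-Nte, a log2 fold change of -0.73 ± 0.27 (SE). NDUFS5, an accessory subunit of complex I, stood at 915, 906 and 1025 CPM in SF-mut, against 1337, 1332 and 1300 CPM in SF-Nte, a log2 fold change of -0.48 ± 0.19 with a 95% interval of -0.88 to -0.08. The libraries of each group lay close together in both genes. By complex, 12 of 14 tested subunits of ATP synthase were below 0 (median -0.39), 8 of 10 of complex IV (median -0.31), 6 of 10 of complex III with cytochrome c (median -0.20), 2 of 4 of complex II (median -0.02) and 11 of 22 of complex I (median -0.06). The 5 members at an unadjusted p under 0.05 that were higher, NDUFB7, NDUFB11, NDUFS6, COX5B and COX8A, were all highest in SF-mut replicate 2. The same list had a median of -0.41 in FL-mut over FL.

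Genes of high level outside the list also lay mostly below 0. Of the 100 genes with the highest CPM, at least 1624, 18 belong to the respiratory list. Of the other 82, 72 were below 0 with a median of -0.32, which was -0.16 without SF-mut replicate 2. The groups separated for 29 of these 82 lower and 1 higher, beside 6.62% lower and 5.75% higher over all genes and 12.2% lower in the quartile of highest levels. All 100 genes together held 47.2, 40.3 and 49.4% of the tested counts in SF-mut and 52.1, 51.7 and 51.3% in SF-Nte, so all 3 SF-mut libraries gave them a smaller share. RACK1, a scaffold of the small ribosomal subunit, stood at 9208, 9087 and 11810 CPM in SF-mut, against 13930, 14400 and 13090 CPM in SF-Nte, a log2 fold change of -0.46 ± 0.18 (SE). ALDOA, the glycolytic aldolase, was at the other end, at 2234, 6171 and 714 CPM in SF-mut, against 1316, 536 and 889 CPM in SF-Nte, and its SF-mut replicate 3 lay within the SF-Nte range. B2M, the light chain of class I antigens, stood at 11420, 14550 and 28630 CPM in SF-mut, against 29260, 29940 and 26860 CPM in SF-Nte, with SF-mut replicate 3 level with SF-Nte.

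Lists of growth and stress genes were set beside the 12.4% of all genes whose groups separated. The groups separated for 3 of 25 genes of the G1 and S phases and 2 of 30 of G2 and mitosis. They separated for 2 of 23 endoplasmic reticulum chaperones and 1 of 22 ATF4 targets. Of 25 genes of the G1 and S phases of the cell cycle, 17 were above 0 (median 0.34), with 2 higher and none lower without adjustment at p under 0.05, close to the 5.85% higher over all genes. RRM2, given above, was among these. TK1, the thymidine salvage kinase, stood at 99.7, 228 and 26.6 CPM in SF-mut, against 38.5, 22.6 and 29.9 CPM in SF-Nte, which overlap. Of 30 genes of G2 and mitosis, 15 were above 0 (median -0.01), and 21 without SF-mut replicate 2 (median 0.23). UBE2C, the ubiquitin-conjugating enzyme of the anaphase-promoting complex, stood at 85.0, 351 and 30.8 CPM in SF-mut, against 21.2, 32.0 and 12.4 CPM in SF-Nte, which overlap. Of 23 chaperones and folding factors of the endoplasmic reticulum, 16 were above 0 with a median of 0.38, but the median was 0.27 with members at 0 in a group set to their bound, and -0.10 without SF-mut replicate 2. DERL1, a channel component of protein export from the endoplasmic reticulum, stood at 62.1, 105 and 32.8 CPM in SF-mut, against 23.1, 22.6 and 7.47 CPM in SF-Nte, and each SF-mut library was above each SF-Nte library. ATF4 targets had 11 of 22 above 0 (median 0.07, and -0.31 without SF-mut replicate 2). SLC7A11, the cystine importer, stood at 13.1, 21.6 and 32.8 CPM in SF-mut, against 42.4, 50.8 and 39.8 CPM in SF-Nte, and all SF-mut libraries were lower.

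Antioxidant genes under NRF2 had 11 of 23 above 0 (median -0.05), heat shock genes 11 of 16 (0.17), p53 targets 6 of 9 (0.11, and 3 of 9 with -0.10 without SF-mut replicate 2), autophagy receptors 12 of 19 (0.27), lysosomal genes 12 of 27 (-0.05), proteasome subunits 12 of 33 (-0.10) and translation factors 19 of 37 (0.04). The small heat shock protein CRYAB stood at 0, 0 and 10.2 CPM in SF-mut, against 82.8, 11.3 and 14.9 CPM in SF-Nte, with both groups low. The lysosomal enzyme GUSB stood at 24.5, 80.1 and 36.9 CPM in SF-mut, against 116, 77.2 and 149 CPM in SF-Nte. The proteasome subunit PSMD7 stood at 99.7, 206 and 61.5 CPM in SF-mut, against 52.0, 47.0 and 59.8 CPM in SF-Nte. It was the one member of its list of 33 whose groups separated, a share below the 12.4% of all genes. The groups separated for 4 of 23 NRF2 genes, 4 of 27 lysosomal genes and 4 of 37 translation factors. They separated for 1 of 16 heat shock genes, 0 of 9 p53 targets and 2 of 19 autophagy receptors. Genes of hypoxia and glycolysis had 9 of 22 above 0 (median -0.28), NF-kB cytokines 3 of 6 (-0.07), proneural and glial genes 3 of 11 (-0.35), the SPANX cancer-testis genes 5 of 5 (0.08) and metallothioneins 0 of 3 (-0.16). SPANXA1 and SPANXA2 had the same CPM in every short-form library, so the SPANX members are not separate observations. Of the SPANX genes 4 of 5 were above 0 without SF-mut replicate 2, and their median of 0.08 was near the 0.05 of all genes. SOX2, the neural stem cell factor, stood at 4.90, 3.08 and 4.10 CPM in SF-mut, against 15.4, 9.41 and 19.9 CPM in SF-Nte, and NCAM1, a neural adhesion molecule, at 32.7, 21.6 and 10.2 CPM in SF-mut, against 9.63, 1.88 and 0 CPM in SF-Nte. In both genes the groups were apart, in opposite directions, at a handful of reads. No member of any list passed the adjusted test.

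**Figure D4:**
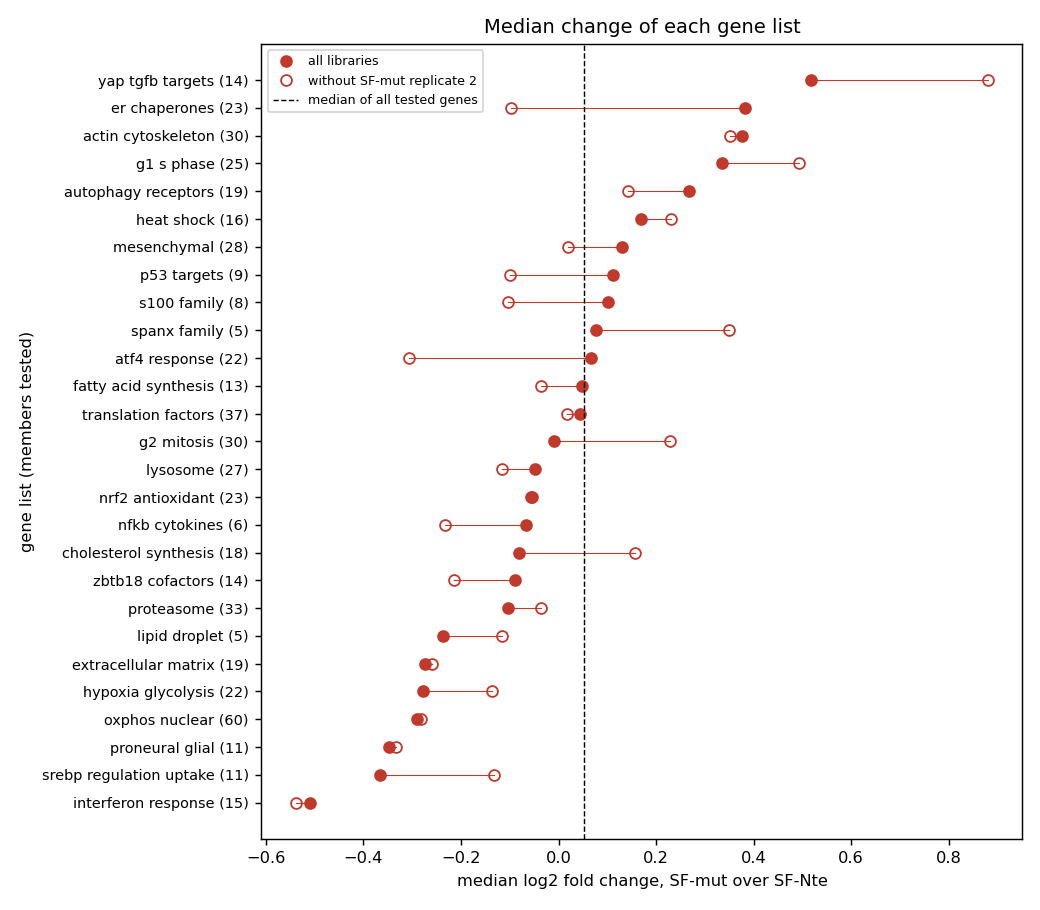
Median log2 fold change of SF-mut over SF-Nte for each gene list with at least 5 tested members (number in brackets), with all libraries (filled) and without SF-mut replicate 2 (open), beside the median of all tested genes (dashed). Respiratory chain and interferon lists stay on the low side with and without that library, while 7 medians cross 0 without it, those of endoplasmic reticulum chaperones, ATF4 targets, cholesterol synthesis, fatty acid synthesis, S100 genes, G2 and mitosis genes and p53 targets.

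The mutation was also tested in both forms in the same fit, as the difference between SF-mut over SF-Nte and FL-mut over FL. The 2 contrasts share no library. FL-mut over FL alone gave 6 genes (0.0887%) past an adjusted p of 0.05 in edgeR. For the difference, 2 of 6767 genes (0.0296%) passed an adjusted p of 0.05, S100A6 and HMGN3, and 315 (4.65%) were at an unadjusted p under 0.05. In both genes the mutant of the full-length form stood well above the full-length form, while the libraries of the short-form groups overlapped. S100A6, a small calcium-binding protein of migrating and mesenchymal cells, stood at 7781, 8008 and 8843 CPM in SF-mut, against 9240, 7727 and 8726 CPM in SF-Nte. It stood at 5698, 5984 and 4106 CPM in FL-mut, against 1931, 1208 and 1109 CPM in FL, and at 12730, 13750 and 13130 CPM in EV. All short-form libraries were above all full-length libraries and below all EV libraries. The log2 fold change was -0.06 ± 0.22 (SE, 95% interval -0.53 to 0.40) in the short form and 1.89 ± 0.23 in the full length. The difference was -1.95 ± 0.31 (edgeR quasi-likelihood test, Benjamini-Hochberg adjusted p = 0.0427). With the GC and length correction it was -1.82 and no longer passed (edgeR adjusted p = 0.623).

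HMGN3, a nucleosome-binding protein of the HMGN family, stood at 378, 409.9 and 513 CPM in SF-mut, against 676, 519 and 396 CPM in SF-Nte. It stood at 209, 236 and 259 CPM in FL-mut, against 43.7, 62.2 and 39.7 CPM in FL, and at 482, 389.8 and 441 CPM in EV. The short-form libraries overlapped the EV libraries, and FL was the lowest group. The log2 fold change was -0.29 ± 0.27 (SE, 95% interval -0.86 to 0.27) in the short form and 2.28 ± 0.28 in the full length. The difference was -2.57 ± 0.39 (edgeR quasi-likelihood test, Benjamini-Hochberg adjusted p = 0.0391), and the GC and length correction kept the call (edgeR adjusted p = 0.0199). Both calls were close to the threshold. With SF-mut replicate 2 left out, no gene passed, although the differences were of like size (-2.56 for HMGN3 and -1.96 for S100A6, edgeR adjusted p = 0.084 and 0.11), and the count was 0 also without SF-mut replicate 1 or 3, SF-Nte replicate 1 or 2, any FL-mut library or FL replicate 3.

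The start regions of these genes are shown because these are the genes past the threshold for the difference between forms and ZBTB18 binds E-box-like DNA. Each sequence, from RefSeq on GRCh38.p14, runs 5′ to 3′ on the strand of the gene from 250 bases before to 50 bases after the annotated start. Capitals mark CATCTG or its reverse complement CAGATG, the letters searched on both strands as the core of the ZBTB18 site. HMGN3 is at chr6:79234633-79234932 and S100A6 at chr1:153535942-153536241, both on the minus strand.
HMGN3: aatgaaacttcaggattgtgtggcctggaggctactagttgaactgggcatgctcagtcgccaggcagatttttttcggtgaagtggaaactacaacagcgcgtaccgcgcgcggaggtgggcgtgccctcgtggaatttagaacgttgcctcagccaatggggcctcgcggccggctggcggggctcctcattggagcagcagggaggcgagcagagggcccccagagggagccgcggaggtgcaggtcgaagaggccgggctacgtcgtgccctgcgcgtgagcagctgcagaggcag
S100A6: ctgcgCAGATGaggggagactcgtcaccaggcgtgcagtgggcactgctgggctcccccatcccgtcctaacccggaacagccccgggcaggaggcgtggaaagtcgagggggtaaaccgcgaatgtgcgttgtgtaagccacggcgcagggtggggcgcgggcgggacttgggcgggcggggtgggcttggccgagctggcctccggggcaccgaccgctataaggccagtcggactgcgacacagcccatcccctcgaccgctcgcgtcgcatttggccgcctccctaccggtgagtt
The HMGN3 window holds 0 matches and the S100A6 window 1, which starts at base 6 from its 5′ end. Of all 35116 promoter windows of this length 14.7% hold a match, and of the 8084 windows of tested genes 9.9%. A match is a description of the letters and does not show that the protein binds there.

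**Figure D5:**
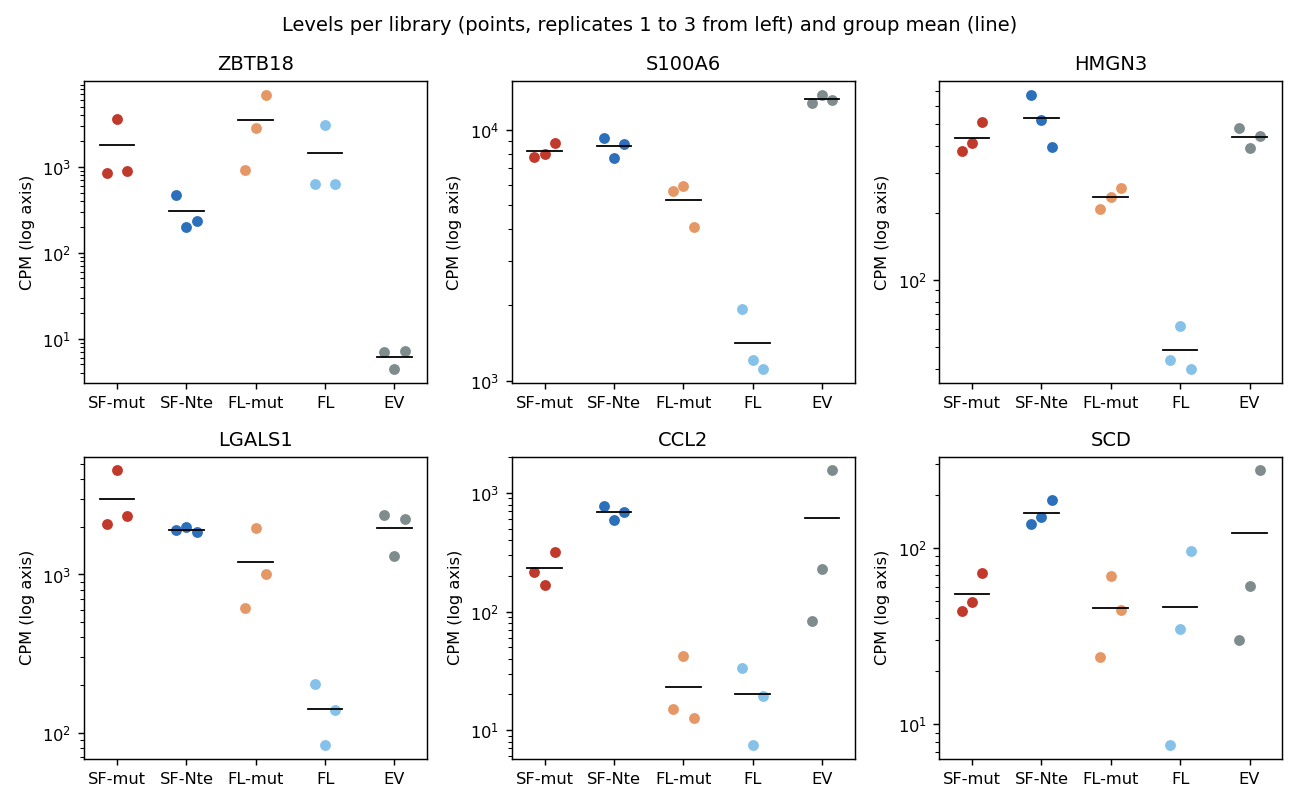
CPM (log axes) of ZBTB18, S100A6, HMGN3, LGALS1, CCL2 and SCD in each library, with replicates 1 to 3 from the left within each group and the group mean as a line. S100A6 and HMGN3 overlap between SF-mut and SF-Nte and lie higher in FL-mut than in FL, while SF-mut lies below SF-Nte in CCL2 and SCD without overlap.

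LGALS1 and S100A16, named after their values were seen, show how imprecise the difference was for other genes. LGALS1, which encodes the secreted lectin galectin-1, stood at 2085, 4546 and 2344 CPM in SF-mut, against 1922, 1983 and 1845 CPM in SF-Nte. It averaged 1199 ± 696 CPM in FL-mut and 141 ± 59.3 CPM in FL. The difference between forms was -2.44 ± 0.59 (SE) and did not pass (edgeR, adjusted p = 0.573). For S100A16 it was -2.89 ± 0.74 (edgeR, adjusted p = 0.639). For ZBTB18 itself the difference was 1.28 ± 1.03, with a 95% interval of -0.91 to 3.47, so the excess of the delivered transcript in the mutant over the unmutated form was not shown to differ between the short form and the full length.

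Across 1975 genes the log2 effect of the mutation in the short form and in the full length correlated at r = 0.67 (rho = 0.54), given as a description because genes are not independent replicates. Without SF-mut replicate 2 the values were r = 0.12 and rho = 0.23. SF-mut replicate 2 and FL-mut replicate 2 were the libraries richest in reads of GC-rich transcripts, with rank correlations of the deviation with GC content of 0.381 and 0.325 across genes, against -0.07 and -0.23 for SF-mut replicates 1 and 3. The likeness of the 2 effects thus moved with 1 library.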

How the data were processed

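The authors' deposited table holds raw read counts for each gene symbol, and the genome build is GRCh38 per the submitters' processing notes. Aligner, counting tool, strand use and annotation were not given in the sources used here, so reads of paralogs, pseudogenes and overlapping genes may be shared between symbols. Poly(A) RNA was turned into PCR-amplified Nanopore cDNA libraries, per the labels' protocols. Reads carried no molecular identifiers, so floors cover counting error only. For 167 tested genes all counts shared a common divisor, and its part in the results was not tested.

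Groups and replicate numbers were read from the sample titles, and all 15 libraries entered 1 fit in edgeR 4.0.16 (R 4.3.3). After filterByExpr with a minimum count of 10 and a minimum total of 15, 6767 genes stayed and 11718 dropped out. TMM scaling was followed by a robust quasi-likelihood model with a coefficient for each group (10 residual degrees of freedom), and p-values were adjusted by Benjamini-Hochberg over the tested genes at 0.05. Standard errors are the size of the log2 fold change over the square root of F, with intervals at 95%. Where a group was at 0, the bound is 3 counts over that group. Setting list members to such bounds moved 1 list median, that of endoplasmic reticulum chaperones, by -0.11. Transcript length and GC content are those of the longest GENCODE v29 transcript, matched for 6725 tested genes (99.4%). The fit was also run on simulated counts. These lacked the GC and length deviations of SF-mut replicate 2, so that run does not bear on them.

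The comparison, the gene lists and the naming rule were chosen with earlier results of these data known. The rule named ZBTB18, then for each direction the 12 genes of lowest p whose groups did not overlap and whose higher group had 10 or more counts per library, up to 3 genes of lowest p per list, and the genes past the threshold for the difference between forms. Other genes (VIM, GFAP, FDPS, FDFT1, SREBF1, B2M, LGALS1 and S100A16 among them) were added for their role or after their values were seen. Of the 12 lower genes, 1 is not reported here. Alternatives were DESeq2 1.42.0, other scalings and filters, a GC and length correction, a replicate block, and fits with libraries left out.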

Additional observations from a re-analysis of the deposited data

Results flagged for a closer look

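HMGN3 and S100A6 stand out because the change from the unmutated to the mutant group differed between the short form and the full length. This rests on a test of the difference itself (edgeR, Benjamini-Hochberg adjusted p = 0.0391 and 0.0427). The groups also differed in mean ZBTB18 level, which cannot be told apart from the mutation. For HMGN3 the log2 effect in the short form minus that in the full length was -2.57, with means of 433 CPM in SF-mut, 530.5 CPM in SF-Nte, 235 CPM in FL-mut and 48.5 CPM in FL. For S100A6 the difference was -1.95, with means of 8211 CPM in SF-mut, 8564 CPM in SF-Nte, 5263 CPM in FL-mut and 1416 CPM in FL. SF-mut and SF-Nte overlapped in both genes, and each FL-mut library was above each FL library.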

How the results depend on the processing

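Genes past the adjusted threshold between SF-mut and SF-Nte, 0 in edgeR, numbered 4 with DESeq2, 193 (170 higher, 23 lower) without a count filter, and 0 with any 1 of the 6 short-form libraries left out. The 564 genes at an unadjusted p under 0.05 became 1355 without a count filter and 272 with the 6 short-form libraries alone. With at least 10 counts required in each library of either SF-mut or SF-Nte, they became 287. With libraries left out they numbered 430 to 944 (944 without SF-mut replicate 3). The log2 fold change of ZBTB18 was 2.49 without a count filter (edgeR adjusted p = 1.33e-10) and 1.51 to 2.92 with libraries left out. The fit without a count filter also passed genes that, of the SF-mut libraries, were high in replicate 2 alone. Its smallest edgeR adjusted p was 3.81e-24, for GPX4, and COX5B passed as well (edgeR adjusted p = 5.955e-09). Genes past the threshold for the difference between forms, 2 as reported, numbered 8 with DESeq2, 49 without a count filter, 0 with upper-quartile scaling, 0 with the 12 libraries of the 4 vector groups alone, 1 with the GC and length correction (HMGN3, with S100A6 lost), and 0 to 1 with libraries left out. Leaving out SF-mut replicate 2 and FL-mut replicate 2 together, an alternative chosen after seeing the data, gave 0. Over the alternatives run both differences kept their sign, and their edgeR adjusted p ran up to 0.204 for HMGN3 and 0.623 for S100A6. The cause of these shifts was not tested.

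Of 1228 alternative values of single genes, 9 turned sign and 27 newly passed the threshold. Log2 fold changes turned in S100A6 (0.027 with the stricter filter, 0.043 with the short-form libraries alone), and with libraries left out in FDFT1 (-0.018 to 0.807), COX5B (-0.364 to 4.124), CTSB (-0.194 to 2.74) and GPX4 (-6.959 to 12.441, with both remaining SF-mut libraries at 0 at the low end, where the fitted size has no fixed value). FDFT1 turned without SF-mut replicate 1, and COX5B, CTSB and GPX4 turned without SF-mut replicate 2. Of 508 alternative list medians, 32 moved by more than the spread between libraries.

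Same-numbered SF-mut and SF-Nte libraries did not deviate together (r = -0.13, -0.20 and -0.02 across 1975 genes), and FL-mut and FL gave 0.23, 0.06 and 0.04. SF-mut and FL-mut, whose libraries enter the difference between forms, gave 0.61, 0.67 and 0.02. The numbers were not taken as pairs, since not every pair was over 0.1. A replicate block gave 0 genes past the adjusted threshold, 571 without adjustment (334 higher and 237 lower, against 396 and 168), a ZBTB18 log2 fold change of 2.16, and 2 genes for the difference, or 1 with the GC and length correction added. That correction alone gave 334 higher and 183 lower. DESeq2 size factors put the median of all genes at 0.10 and upper-quartile scaling at -0.05. Depth limits low genes most, with a median standard error of 1.16 in the lowest quartile of levels.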
